A study of Mus musculus with 4 samples.

Results

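The E2 ubiquitin-conjugating enzymes were followed in neural stem and progenitor cells (NSPC) of the mouse neocortex. Members were the bead-array probes annotated to a gene symbol beginning with Ube2 and detected on at least 2 of the 4 arrays, with a detection p under 0.05. These were 44 probes of 29 symbols, among 60 Ube2 probes of 34 symbols, 18237 detected probes and 45259 probes on the array. The study set NSPC overexpressing Bmi1, a polycomb protein, from a Cre/LoxP-based conditional transgenic mouse, against transgenic control NSPC, all on the C57BL/6 strain, with 2 biological replicates and 1 array each. Both were grown as neurospheres with the growth factors EGF (20 ng/ml) and FGF2 (20 ng/ml), in suspension, and were harvested on day 5. The study design calls the replicates biological. The labels name neither the promoter that drives Cre, nor the alleles of the control cells, nor the animals behind each culture. The p-values therefore measure only the spread between these samples. That spread may be technical between the arrays labelled Bmi1, while the controls differed at sex transcripts, as given below.

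Ubiquitin is passed along a cascade. An E1 enzyme activates it, an E2 enzyme carries it as a thioester on a cysteine, and an E3 ligase brings the loaded E2 to the substrate. The E2 largely sets which kind of chain is built, and some members of the family carry the ubiquitin-like proteins SUMO, NEDD8 or ISG15 instead. Bmi1 belongs to this chemistry, since with its partner Rnf2 it forms the RING ligase of polycomb repressive complex 1, which marks histone H2A with ubiquitin taken from E2s of the Ube2d class.

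The direction of every difference is unsettled. The deposited scanner table heads 2 arrays as controls and 2 as Bmi1 cells, while the columns of the deposited processed table filed under the control samples matched the arrays headed Bmi1 at a Spearman correlation of 1.00 across probes, against at most 0.898 for any other array. Arrays are named here by the scanner headers, differences are arrays labelled Bmi1 minus arrays labelled control, and each sign turns if the processed table is right. The Bmi1 probe itself gave signals of 53.3 and 77.7 on the arrays labelled Bmi1, against 79.4 and 62.7 on the controls, which overlap. Its difference was 0.24 (SE 0.29, limma adjusted p = 0.680), and whether it reads the transgene is not stated, so it does not check the labels. Control array 1 stood apart, with signals of 115 to 971 at 4 Xist probes, against at most 8.4 on the other arrays, and -1.8 at a probe of the Y-linked Eif2s3y, against 240 and 228 on the arrays labelled Bmi1 and 205 on control array 2. At these sex transcripts the controls differed from each other, and control array 2 resembled the arrays labelled Bmi1. The part of sex in the differences was not tested. The arrays labelled Bmi1 detected 17742 and 16495 probes and the controls 18242 and 18208.

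Of 10 NSPC markers 8 were detected, Nes, Sox2 and Vim among them. Astrocyte markers were detected for 9 of 10 genes and oligodendrocyte markers for 9 of 11, so detection does not single out the labelled cell type. Summed signals of the 8 NSPC markers were 4961 to 5742 on the arrays labelled Bmi1 and 4394 to 7718 on the controls. Of 12 detected mitotic genes, 12 stood higher on average in the arrays labelled Bmi1, with summed signals of 6584 and 8913 against 3060 and 6094. Without control array 1, 10 of the 12 were positive. Of 9 detected astrocyte markers 7 were lower, with summed signals of 41366 and 36994 against 39446 and 47962, and of 9 oligodendrocyte markers 6 were lower, with 19253 and 15829 against 24163 and 19645. Of the 6 detected neuron markers 3 were lower, at summed signals of 2988 and 1841 against 3564 and 3378. Microglial, endothelial and mural markers were detected for 2 of 8, 0 of 7 and 1 of 8 genes. Pecam1, Cdh5, Ptprc and Col1a1 were below detection. The mitotic, oligodendrocyte and neuron sums lay apart between the labelled groups, and the NSPC and astrocyte sums overlapped. Sums weigh bright genes most. Gene by gene, at an unadjusted limma p under 0.05, 7 mitotic genes (58.3%) and 1 NSPC marker (12.5%) were higher and 0 lower. In the same test 5 astrocyte (55.6%), 5 oligodendrocyte (55.6%) and 1 neuron marker (16.7%) were lower and 0 higher. Of all named genes 13.1% were higher and 10.3% lower. In these lists 0 passed the adjusted test. The sums were not scaled to the arrays, whose mean signals also lay apart, at 214.8 and 190.9 against 227.9 and 233.3. The part of these markers in the E2 differences was not tested. In whole cultures, fewer cells of a type and less RNA per cell cannot be told apart.

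Promoters of 3 genes show the regulatory sequence next to the results below. Ube2v1 had the largest difference of the family, Ube2l3 was the gene whose 2 probes both had an unadjusted p under 0.05, and Ube2c is the textbook cell-cycle E2 whose probe fell outside the members. Each line gives the 250 bases before the annotated start, read 5′ to 3′ along the gene, from RefSeq on GRCm38.p6, with motif matches in capitals.
Ube2v1, chr2:167632006-167632255, minus strand: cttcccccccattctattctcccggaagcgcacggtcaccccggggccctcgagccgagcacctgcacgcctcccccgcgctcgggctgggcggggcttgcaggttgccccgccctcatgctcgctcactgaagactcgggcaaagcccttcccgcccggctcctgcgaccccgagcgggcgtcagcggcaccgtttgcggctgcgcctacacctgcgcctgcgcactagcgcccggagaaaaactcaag
Ube2l3, chr16:17201493-17201742, minus strand: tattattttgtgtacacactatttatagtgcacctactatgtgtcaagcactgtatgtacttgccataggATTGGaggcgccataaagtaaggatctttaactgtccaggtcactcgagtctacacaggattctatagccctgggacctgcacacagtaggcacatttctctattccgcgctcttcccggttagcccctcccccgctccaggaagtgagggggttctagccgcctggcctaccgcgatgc
Ube2c, chr2:164769679-164769928, plus strand: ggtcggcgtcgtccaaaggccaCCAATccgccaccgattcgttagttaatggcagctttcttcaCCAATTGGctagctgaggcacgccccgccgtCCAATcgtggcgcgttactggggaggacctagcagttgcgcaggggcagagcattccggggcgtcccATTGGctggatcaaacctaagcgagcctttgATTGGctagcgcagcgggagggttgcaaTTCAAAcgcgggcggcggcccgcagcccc

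Motifs were searched on both strands as the CHR element TTTGAA, known from promoters of late cell-cycle genes, the CCAAT box CCAAT, bound by the factor NF-Y, and the E2F site TTTNGCGC. In capitals the Ube2c window holds 1 CHR match and 6 CCAAT matches, of which a pair on opposite strands overlap. The Ube2l3 window holds 1 CCAAT match and the Ube2v1 window none of the 3 motifs. Of all 32851 promoter windows of this length, 16% held the CHR letters, 33.8% the CCAAT letters and 1.13% the E2F letters. Of the 29 member genes, 25 had a window in the table, and 2, 6 and 1 of them held the 3 motifs in that order.

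No E2 probe passed the adjusted test. The 44 probes had a median log2 difference of 0.05, against -0.01 over all detected probes, with 23 positive and 21 negative. With 1 probe a gene the median was -0.02 over the 29 Ube2 genes, against 0.009 over all. The median size of a difference, sign ignored, was 0.21, against 0.27 over all detected probes, and 38 of the 44 lay within 0.5 of zero. With limma, 0 of the 44 had an adjusted p under 0.05, as did 0 of the 18237 probes (0%), with a smallest adjusted p of 0.142. At an unadjusted p under 0.05 there were 6 E2 probes (13.6%), against 20.8% of all detected probes, and 5 of them were higher and 1 lower, against backgrounds of 10.7% and 10.1%. Of the 5, a Ube2d1 probe was detected on both arrays labelled Bmi1 and on neither control, so the filter admitted it through the group where it was higher. Of the 35 members detected on every array, 5 (14.3%) had an unadjusted p under 0.05, with 4 higher and 1 lower. The 2 arrays of a group lay apart from both arrays of the other for 21 probes (47.7%), against 53.6% of all probes. Of these 11 were higher and 10 lower, with backgrounds of 26.3% and 27.3%. Neither gap was tested, and the first depended on the setting. Without control array 1 the count was 2 (4.55%, against 9.01% of all probes), without the second Bmi1 array 11.4% of Ube2 probes stood against 10.9% of all, and with no filter 14 of 60 (23.3%) stood against 12.3% of all. Median scaling in place of quantile normalization made 30 of the 44 positive, while it moved the median of all probes to 0.14. Relative to that shift the E2 median was 0.12, against 0.06 by quantile normalization.

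**Figure D1:**
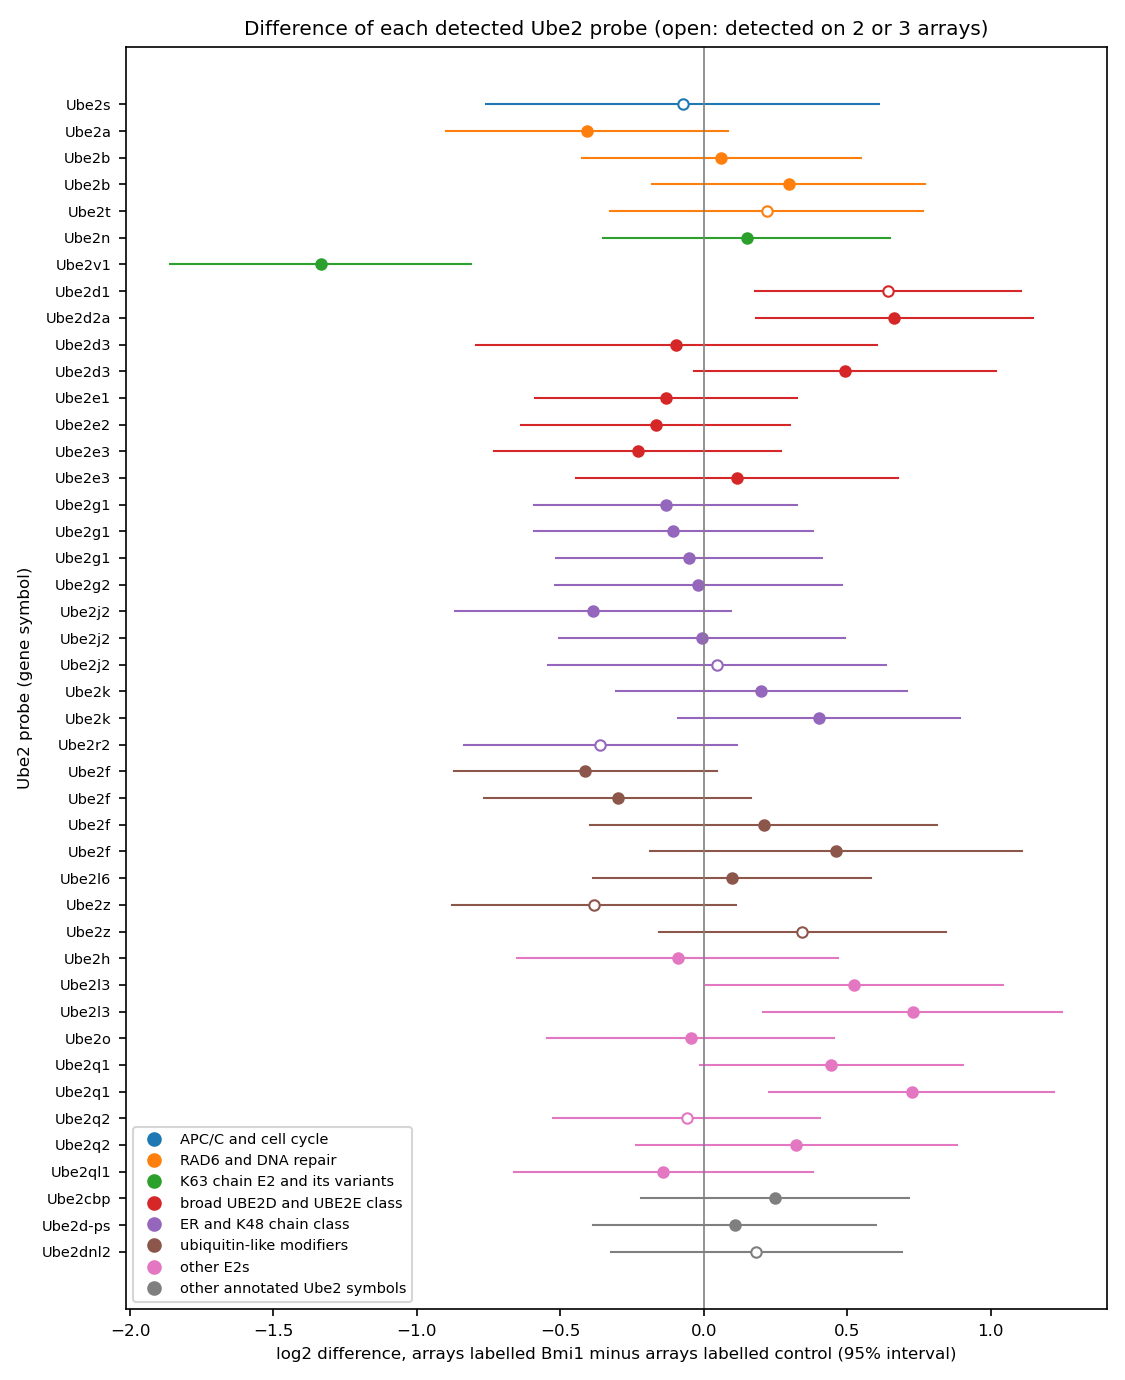
Log2 difference (arrays labelled Bmi1 minus arrays labelled control, horizontal axis) with its 95% interval for each of the 44 Ube2 probes, grouped and coloured by role, open circles being detected on 2 or 3 of 4 arrays. Ube2v1 stands alone on the left at -1.34, and 38 of the 44 probes lie within 0.5 of zero.

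The E2s of the K63 type held the member with the largest difference. Ube2v1 is an E2 variant without the catalytic cysteine that pairs with Ube2n, and the pair builds chains linked through lysine 63 of ubiquitin, used in TRAF6 and NF-κB signalling and in DNA damage responses. The Ube2v1 probe gave background-subtracted signals of 110.8 and 84.4 on the arrays labelled Bmi1, against 289.5 and 410.2 on the controls. Its normalized log2 values were 7.02 and 7.00, against 8.13 and 8.57. Both arrays labelled Bmi1 lay well below both controls, and the pair labelled Bmi1 lay closer together than the control pair. The log2 difference was -1.34 (SE 0.22, 95% interval -1.86 to -0.81), or 2.52-fold lower in the arrays labelled Bmi1, with an adjusted p = 0.142. Leaving out single arrays left it between -1.56 and -1.13, with an adjusted p from 0.0682 to 0.498. Ube2n, the catalytic partner, had overlapping groups. Its detected probe stood at 8.67 and 8.88 in the arrays labelled Bmi1 and at 8.77 and 8.48 in the controls. The difference was 0.15 (SE 0.21, 95% interval -0.35 to 0.65, adjusted p = 0.732), and without control array 2 it was -0.00013. A second Ube2n probe and both probes of Ube2v2, the variant that pairs with Ube2n in DNA damage tolerance, were detected on 0 arrays.

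**Figure D2:**
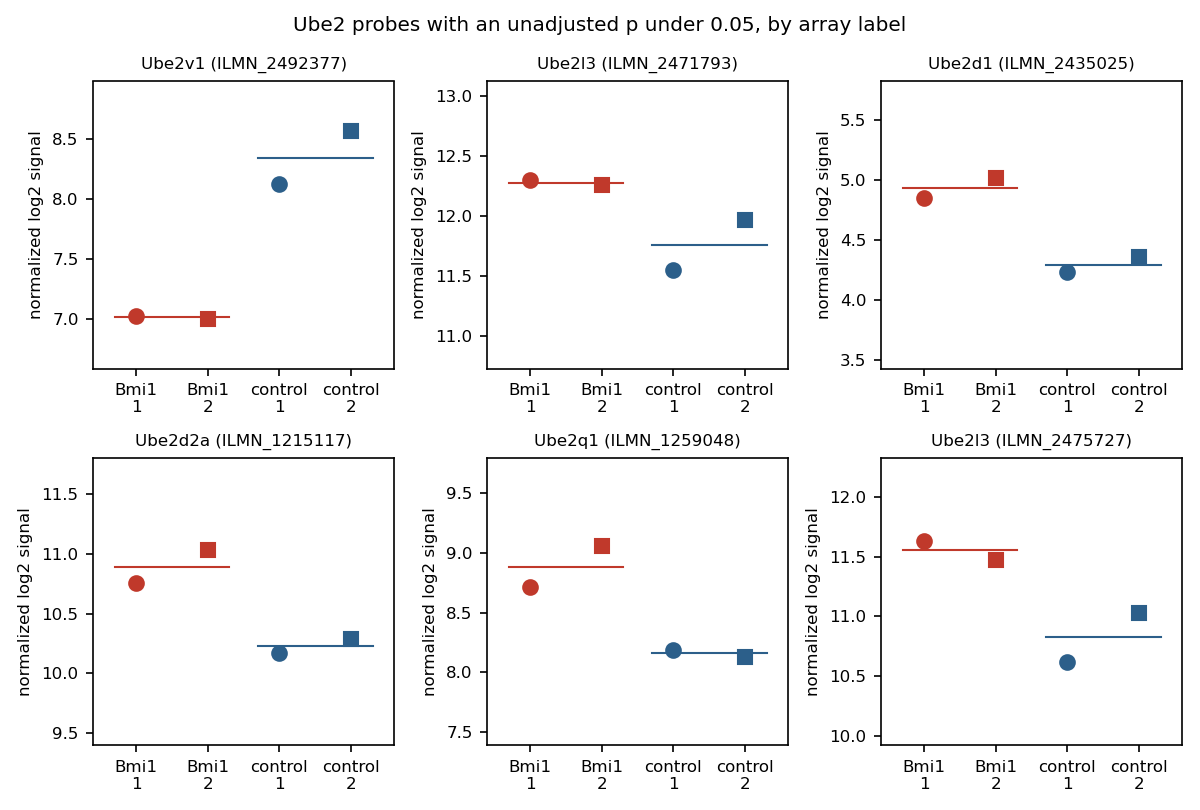
Normalized log2 signal (vertical axis, each panel spanning the same range) of the 6 Ube2 probes with an unadjusted p under 0.05 on each array, red for arrays labelled Bmi1 and blue for controls, with lines at the group means. Ube2v1 lies near 7.0 on both arrays labelled Bmi1 and above 8.1 on both controls, while the other 5 probes lie higher on both arrays labelled Bmi1.

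Of 16 detected ligases and readers of this pathway, 1 was higher and 0 lower at an unadjusted p under 0.05 (backgrounds over the brightest probe of each named gene 13.1% higher, 10.3% lower and 23.4% in all). Their median was 0.08, and 0.32 with median scaling, which moved the median of all probes to 0.14. The ligase Traf6 stood at 8.05 ± 0.01 in the arrays labelled Bmi1 and 7.51 ± 0.10 in the controls (SD, n = 2 each), a difference of 0.54 (SE 0.19, adjusted p = 0.189). Rnf168, which ubiquitinates histone H2A at DNA breaks, stood at 0.42 (SE 0.21, adjusted p = 0.300).

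Among the broadly acting Ube2d and Ube2e enzymes, which serve many RING ligases, 2 of 8 probes had an unadjusted p under 0.05. This was 25%, against 20.8% of all detected probes. The 2 were the Ube2d2a probe and 1 of Ube2d1. Ube2d2a had log2 values of 10.76 and 11.03 in the arrays labelled Bmi1, against 10.17 and 10.29 in the controls, with no overlap. Its difference was 0.66 (SE 0.21, 95% interval 0.18 to 1.15, adjusted p = 0.161), a 1.58-fold higher value. Ube2d1 was detected on both arrays labelled Bmi1, at signals of 12.5 and 13.9, and on neither control, at -2.0 and 2.3. It entered the members through the group where it was higher, so its difference of 0.64 (SE 0.20, adjusted p = 0.160) is tied to the filter. On average it lay 1.29-fold above the lowest detected signal of the control arrays, and with an offset of 50 its difference was 0.27. Its other probe was detected on 0 arrays.

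Ube2d3 gave 2 answers. One of its probes had log2 values of 6.05 and 6.50 in the arrays labelled Bmi1, against 5.77 and 5.79 in the controls, a difference of 0.49 (SE 0.22, adjusted p = 0.264) that was 0.27 without the second Bmi1 array. The other had 6.94 and 6.11, against 6.49 and 6.75, a difference of -0.10 (SE 0.30, adjusted p = 0.887). The values of the second probe overlapped between groups, and its sign turned to 0.33 without the second Bmi1 array. The 4 probes of Ube2e1, Ube2e2 and Ube2e3 lay between -0.23 and 0.12, none with an unadjusted p under 0.05. The Ube2d genes encode closely similar proteins, and where on the transcripts their probes lie was not analysed here, so signal shared between them was not tested. Of 9 detected polycomb RING ligase genes and H2A deubiquitinases, 0 had an unadjusted p under 0.05, against 23.4% of all named genes. The deubiquitinase Bap1 stood at -0.42 (SE 0.22, adjusted p = 0.323), which was -0.22 without control array 1. The Bmi1 relative Pcgf1 stood at -0.56 (SE 0.29, adjusted p = 0.325), which was -0.14 without the second Bmi1 array.

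Ube2l3 and Ube2q1 had a pair of detected probes each, all of them higher on both arrays labelled Bmi1. Ube2l3, also called UbcH7, hands ubiquitin to HECT and RING-between-RING ligases such as parkin. Its brighter probe had log2 values of 12.30 and 12.26 in the arrays labelled Bmi1, against 11.54 and 11.97 in the controls. Its dimmer probe had 11.63 and 11.47, against 10.62 and 11.03. Without overlap, the probes differed by 0.52 (SE 0.22, adjusted p = 0.236) and 0.73 (SE 0.22, adjusted p = 0.158), and control array 1 was the lowest for each. Without control array 1 the brighter probe stood at 0.31. Ube2q1 is a larger E2 with a long stretch ahead of its catalytic domain. Its brighter probe had 8.71 and 9.06, against 8.19 and 8.13, a difference of 0.72 (SE 0.21, 95% interval 0.23 to 1.22, adjusted p = 0.152), and its other detected probe stood at 0.44 (SE 0.20, adjusted p = 0.252). The remaining Ube2q1 probe was detected on 1 array.

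The cell-cycle E2s were hardly measured, although other mitotic genes were. Ube2c starts ubiquitin chains on substrates of the anaphase-promoting complex (APC/C), and Ube2s lengthens them. The Ube2c probe gave signals of 2.2 and 4.6 on the arrays labelled Bmi1, against 6.4 and 9.4 on the controls, and was detected on 1 array only, so it was no member. Ube2s was detected on 1 array of each group, with log2 values of 5.02 and 4.27 in the arrays labelled Bmi1, against 4.52 and 4.92 in the controls. These overlap, and the difference of -0.07 (SE 0.29, adjusted p = 0.914) was 0.22 with median scaling and 0.32 without the second Bmi1 array. Of the APC/C and its activators, inhibitors and substrates, 15 of 21 genes were detected, 14 with a positive difference, against 50.9% of all named genes. At an unadjusted p under 0.05, 5 (33.3%) were higher and 0 lower, against 13.1% and 10.3% of all named genes, and 0 passed the adjusted test. The scaffold subunit Anapc5 stood at 12.24 ± 0.20 in the arrays labelled Bmi1 and 11.29 ± 0.17 in the controls (SD, n = 2 each), a difference of 0.95 (SE 0.21, adjusted p = 0.142). The activator Cdc20 stood at 10.99 ± 0.32 and 9.89 ± 0.79, a difference of 1.10 (SE 0.37, adjusted p = 0.173) that was 0.55 without control array 1. Cdc20 and Bub1b are also among the mitotic genes, so the APC/C and mitotic lists are not separate.

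Of 4 detected probes of DNA repair E2s, 0 had an unadjusted p under 0.05, against 20.8% of all detected probes. Ube2a and Ube2b are the mammalian forms of yeast RAD6, which work with Rad18 on PCNA and with Rnf20 and Rnf40 on histone H2B. Ube2a had log2 values of 7.52 and 7.84 in the arrays labelled Bmi1, against 8.12 and 8.05 in the controls. It was lower on both, by a difference of -0.41 (SE 0.21, 95% interval -0.90 to 0.08, adjusted p = 0.314), which was -0.25 without the first Bmi1 array. The brighter Ube2b probe had 10.06 and 10.19, against 10.20 and 9.92, which overlap, at a difference of 0.06 (SE 0.21, adjusted p = 0.897) that turned to -0.08 without control array 2. The dimmer one had 5.275 and 5.45, against 5.17 and 4.96, with no overlap, a difference of 0.30 (SE 0.20, adjusted p = 0.446) that was 0.19 without control array 2.

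Ube2t, which monoubiquitinates Fancd2 with the ligase Fancl in crosslink repair, was detected on 1 array of each group, at 4.50 and 4.89 in the arrays labelled Bmi1 and 4.31 and 4.64 in the controls. These overlap, with a difference of 0.22 (SE 0.23, adjusted p = 0.635), which was 0.02 without the second Bmi1 array. Among 13 detected partners of the RAD6 and Fanconi E2s, 3 were higher and 1 lower at an unadjusted p under 0.05 (30.8%, against 23.4% of all named genes). Fancd2 itself stood at 6.60 ± 0.32 in the arrays labelled Bmi1 and 5.59 ± 0.31 in the controls (SD, n = 2 each), a difference of 1.02 (SE 0.25, adjusted p = 0.142). The Fanconi helicase Fancm stood at 0.57 (SE 0.20, adjusted p = 0.187).

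Carriers of ubiquitin-like proteins held the gene whose probes lay furthest apart, Ube2f. It transfers NEDD8 to cullin 5. Of its 4 probes, all detected on every array, the 2 brighter ones had log2 values of 9.58 and 10.24 (against 9.69 and 9.73) and of 8.997 and 9.72 (against 8.78 and 9.02), arrays labelled Bmi1 first in each pair. The 2 dimmer ones had 7.38 and 7.51 (against 7.66 and 7.82) and 7.22 and 7.12 (against 7.52 and 7.65). The bright probes differed by 0.21 and 0.46 (SE 0.26 and 0.28, adjusted p = 0.688 and 0.386) and overlapped between groups, carried by the second Bmi1 array, without which they stood at -0.12 and 0.10. The dim probes differed by -0.30 and -0.41 (SE 0.20 each, adjusted p = 0.427 and 0.276), with both arrays labelled Bmi1 below both controls. Where on the transcript each probe lies was not analysed here, so no direction can be stated for the gene.

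**Figure D3:**
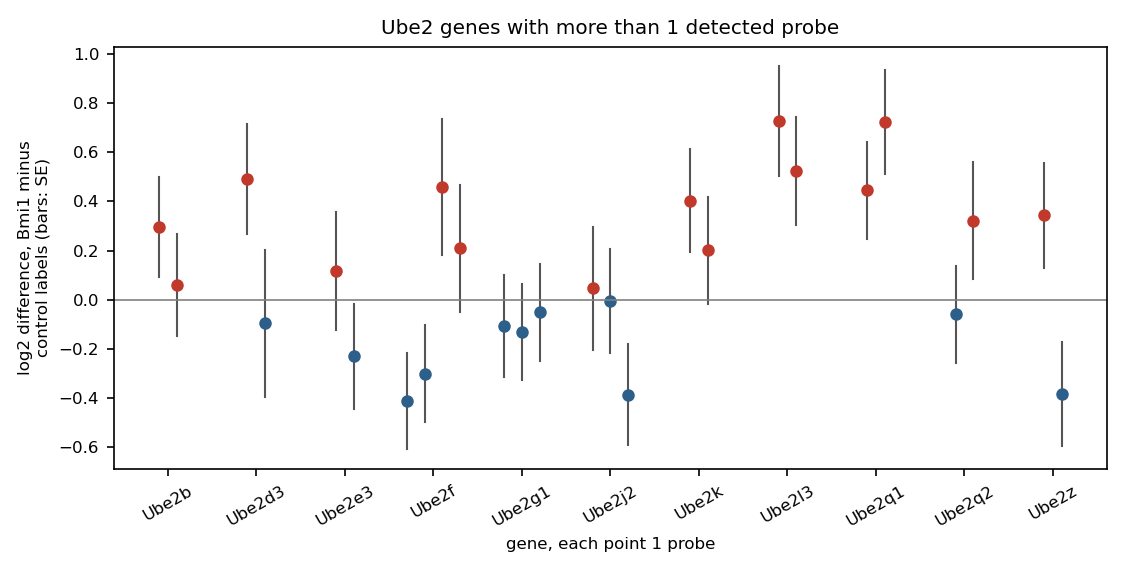
Log2 difference (vertical axis, arrays labelled Bmi1 minus arrays labelled control) of each detected probe of the 11 Ube2 genes with more than 1, bars showing the SE, red above and blue below zero, and probes ordered from dim to bright within a gene. Probes of 6 genes lie on both sides of zero, among them Ube2f from -0.41 to 0.46.

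Other E2 genes also had probes of both signs. Of 11 genes with more than 1 detected probe, 6 had probes of both signs (Ube2d3, Ube2e3, Ube2f, Ube2j2, Ube2q2 and Ube2z), a count that was 6 with median scaling and 4 without the second Bmi1 array. Without probes detected in 1 group only, which takes out a Ube2z probe, it was 5 of 10 genes. The share over all genes with more than 1 detected probe was not computed, so mixed signs cannot be called particular to E2s. The positive Ube2j2 probe lay near background, at signals of -1.7 and 10.3 on the arrays labelled Bmi1, against 1.4 and 9.0. So did the negative Ube2q2 probe, at 8.2 and 3.6, against 7.9 and 7.8. Ube2z, which takes ubiquitin from the E1 Uba6, had 1 probe at -0.38 (SE 0.21, adjusted p = 0.349) and 1 at 0.34 (SE 0.21, adjusted p = 0.400). With median scaling these were -0.12 and 0.62, the first was -0.22 without the first Bmi1 array, and the second was 0.17 without the second. The positive probe was detected on both arrays labelled Bmi1 and on neither control. It entered the members through the group where it was higher, so its difference is tied to the filter. On average the arrays labelled Bmi1 lay 1.21-fold above the lowest detected signal of the control arrays at this probe, a value that carries no sampling error. Ube2l6, the ISG15 carrier, stood at 0.10 (SE 0.21, adjusted p = 0.831) at dim signals of 17.1 and 11.5, against 11.6 and 18, and turned to -0.01 without control array 1. Ube2m, the carrier of NEDD8 for the other cullins, was not analysed here.

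Lists around these carriers held differences of both signs. In the NEDD8 and cullin list 17 of 19 genes were detected, 5 higher and 0 lower at an unadjusted p under 0.05 (29.4%, against 23.4% of all named genes), led by the ligase scaffold Cul4b at 0.75 (SE 0.22, adjusted p = 0.153) and the NEDD8 ligase Dcun1d5 at 0.72 (SE 0.22, adjusted p = 0.160). In the SUMO list 14 of 15 were detected, 0 higher and 3 lower (21.4%, against the same 23.4%). The SUMO ligase Pias4 stood at 6.43 ± 0.66 in the arrays labelled Bmi1 and 7.94 ± 0.003 in the controls (SD, n = 2 each), a difference of -1.51 (SE 0.31, adjusted p = 0.142), and Pias3 at -0.53 (SE 0.21, adjusted p = 0.216). Among 7 detected E1 genes 1 was higher and 2 lower at that p (42.9%). The autophagy E1 Atg7 stood at -0.92 (SE 0.20, adjusted p = 0.142) and Mocs3, the E1 of the modifier Urm1, at -0.79 (SE 0.22, adjusted p = 0.145), while Sae1 of the SUMO E1 stood at 0.80 (SE 0.25, adjusted p = 0.158), or 0.53 without control array 1. Of 6 detected modifier genes 0 had an unadjusted p under 0.05, with Ubl5 at -0.29 (SE 0.20, adjusted p = 0.451) and Sumo2 at 0.29 (SE 0.20, adjusted p = 0.466). Ubl5 was -0.16 without control array 1, and Sumo2 0.15 without the second Bmi1 array.

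E2s that build K48-linked chains or serve the endoplasmic reticulum (ER) had differences of both signs. The 3 probes of Ube2g1, an E2 of K48-linked chains, differed by -0.05, -0.11 and -0.13, and Ube2g2, which works with ER ligases, by -0.02 (95% interval -0.52 to 0.48). Ube2g2 was dim, at signals of 9.0 and 14.0 on the arrays labelled Bmi1, against 14.2 and 14.3, and stood at 0.22 with median scaling. Ube2j2, anchored in the ER membrane, had probes at -0.39, -0.01 and 0.05, and Ube2j1 was detected on 1 array. Both probes of Ube2k, which makes K48-linked chains on its own, were positive, at 0.40 (SE 0.21, adjusted p = 0.321) and 0.20 (SE 0.22, adjusted p = 0.640). Without the second Bmi1 array they stood at 0.26 and 0.04. Ube2r2, a relative of the cullin E2 Cdc34, stood at -0.36 (SE 0.20, adjusted p = 0.357) at dim signals of 9.6 and 4.1, against 14.7 and 17.0, and at -0.07 with median scaling. The 10 probes of this class had a median of -0.04, and 0 had an unadjusted p under 0.05, against 20.8% of all detected probes.

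In the ER degradation list around them, differences ran both ways. Of 14 detected genes 2 were higher and 6 lower at an unadjusted p under 0.05 (57.1%, against 23.4% of all named genes), and 0 passed the adjusted test. The ligase Rnf185 stood at 9.14 ± 0.16 in the arrays labelled Bmi1 and 8.34 ± 0.05 in the controls (SD, n = 2 each), a difference of 0.80 (SE 0.20, adjusted p = 0.142). The membrane protein Derl2, which takes part in exporting proteins from the ER, stood at 0.76 (SE 0.21, adjusted p = 0.147). The ligase Rnf5 had log2 values of 10.54 and 9.73 in the arrays labelled Bmi1, against 10.94 and 11.10 in the controls, a difference of -0.89 (SE 0.29, adjusted p = 0.168) that was -0.47 without the second Bmi1 array. The list median was 0.19, and without the second Bmi1 array the median was -0.05. Of 8 detected E2-like genes with other names, 1 was higher at an unadjusted p under 0.05 (12.5%, against 13.1% of all named genes). It was the E2 variant Aktip at 0.99 (SE 0.19, adjusted p = 0.142). Cdc34 stood at -0.24 (SE 0.20, adjusted p = 0.536), or -0.14 without control array 2.

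**Figure D4:**
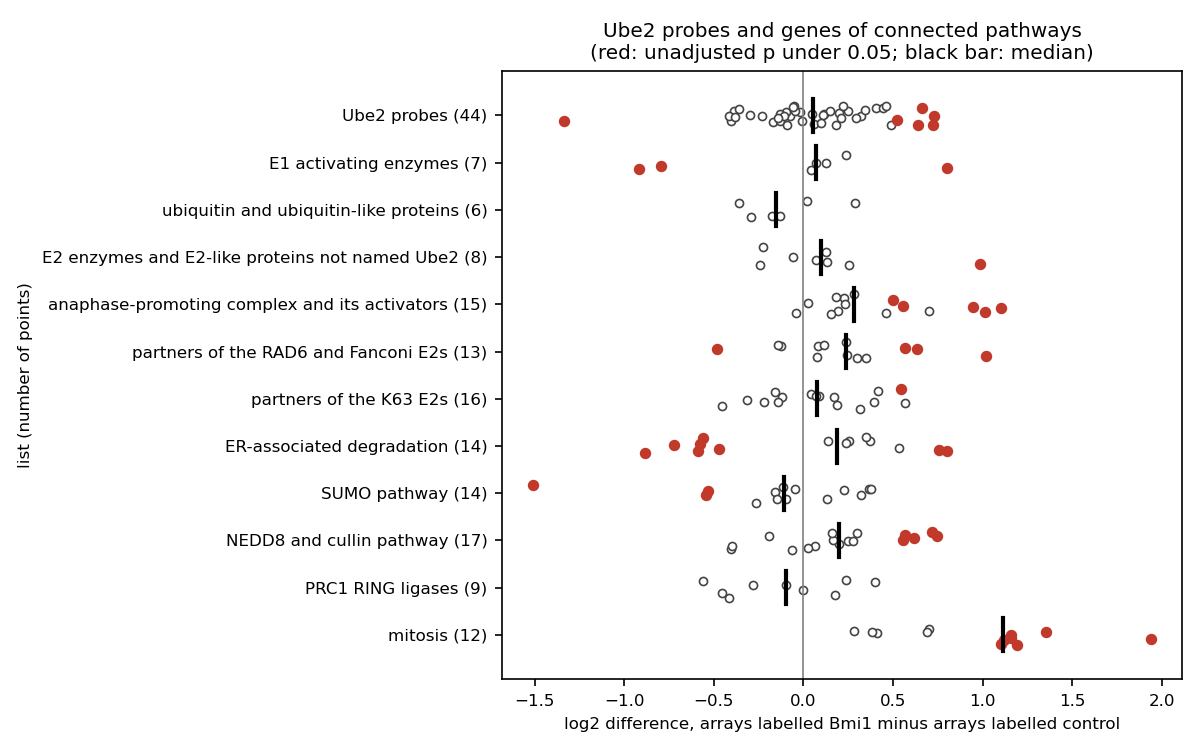
Log2 difference (horizontal axis, arrays labelled Bmi1 minus arrays labelled control) of the 44 Ube2 probes in the top row and of the brightest detected probe of each gene in connected lists below, red for an unadjusted p under 0.05, with black bars at the medians. The Ube2 probes centre on 0.05 (-0.02 with 1 probe a gene), the APC/C list on 0.28 (0.45 with median scaling) and the mitotic list on 1.11 (0.52 without control array 1). Cdc20 and Bub1b are in both the APC/C and mitotic lists.

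The remaining members lay between -0.14 and 0.32. Ube2h, the E2 of the CTLH ligase, stood at -0.09, Ube2o, a large enzyme with E2 and E3 activity, at -0.05, and Ube2ql1 at -0.14. The 2 detected Ube2q2 probes stood at 0.32 (0.08 without the second Bmi1 array) and -0.06. Symbols that share the prefix without being a typical E2 were Ube2cbp, which encodes an E3-type protein, at 0.25, the noncoding Ube2d-ps at 0.11, and Ube2dnl2 at 0.18, none with an unadjusted p under 0.05. Without these 3 probes, 6 of 41 (14.6%) had an unadjusted p under 0.05, against 20.8% of all detected probes. Over the 44 probes, 27 kept their sign under 3 other scalings and with each array left out, and 17 turned when some array was left out.

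The detection rule left out 16 probes and 5 symbols, Ube2c, Ube2j1, Ube2u, Ube2v2 and Ube2w. Of the 16 probes, 4 were detected on 1 array and 12 on none. Just inside the rule, 6 probes were detected on exactly 2 arrays, 1 each of Ube2s, Ube2t, Ube2dnl2, Ube2d1, Ube2j2 and Ube2z. Just outside it lay the Ube2c probe and 1 probe each of Ube2j1, Ube2l6 and Ube2q1, with signals of at most 15.4. The replicates set the precision. The arrays labelled Bmi1 differed from each other by a median of 0.23 over the members, against 0.16 between the controls, and the SE of a difference ran from 0.20 to 0.30.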

How the data were processed

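RNA of 2 NSPC cultures overexpressing Bmi1 and 2 transgenic control cultures was read on Illumina bead arrays. The authors deposited a scanner table of signal intensity and, per the file headers, a detection p-value per probe. The intensity was already background-subtracted, and the detection column rose with it, so the p-value was taken as 1 minus the deposited number. The authors' processed table holds log2 values, made with lumi per the submitters' processing notes. Rows without a probe identifier (22) were left out. The direction of this table opposes the scanner headers, by which arrays are named. Both Bmi1 headers are identical, so these arrays are called first and second by column order.

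Signals were corrected and quantile normalized with neqc (offset 16) of limma 3.58.1 in R 4.3.3. The fit (lmFit, eBayes, group as the only term, two-sided, 7.29 degrees of freedom) covered the 18237 probes with a detection p under 0.05 on at least 2 arrays, with Benjamini-Hochberg adjustment over all of them at 0.05. It was checked on simulated data with planted differences larger than that of any Ube2 probe and a common spread for all probes. Recovery of smaller differences was not tested. GEO's platform annotation gave 34872 probes 1 symbol, 18 several and 10369 none. Connected genes were represented by their brightest detected probe. Named with array values are probes with an unadjusted p under 0.05 and listed cell-cycle, repair, K63, Ube2d and NEDD8 members, and in each connected list the 2 genes of smallest p (Sae1, Rnf5, and the markers and other E2s given in passing, were added after their values were seen). A fold for a probe below detection on a whole group sets the mean of the other group against the lowest detected signal of each array. It carries no sampling error. Members, lists and tests were chosen with earlier results of these data known. With 4 arrays, precision is low. Alternatives are given at the end. No slide or scan date was used.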

Additional observations from a re-analysis of the deposited data

How the results depend on the processing

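The count of all probes with an adjusted p under 0.05 ran from 0 to 12 with single arrays left out (12 without control array 2, 1 without the first Bmi1 array), and was 0 in each other setting. At an unadjusted p under 0.05 the count ran from 1643 (without control array 1) to 4895 (without the first Bmi1 array). For Ube2 probes it ran from 2 to 6, and was 14 of 60 with no filter (23.3%, against 12.3% of all probes, where the filter used here gave 13.6% against 20.8%). Their median was 0.26 with median scaling and -0.02 with 1 probe a gene, and ran from 0.03 to 0.11 with single arrays left out. Ube2s was 0.22 with median scaling. With arrays left out, Ube2s ran from -0.45 to 0.32, the second Ube2d3 probe from -0.51 to 0.33, Ube2n from -0.00013 to 0.30, the brighter Ube2b probe from -0.080 to 0.20 and the brightest Ube2f probe from -0.12 to 0.53. The authors' processed table as filed, without and with the replicate number as a block, turned the sign of each probe listed next, its group names being opposite to the scanner headers. Its differences were 0.071 for Ube2s, -0.38 for Ube2d1, -0.65 for Ube2d2a, -0.33 and 0.063 for Ube2d3, -0.14 for Ube2n, 1.15 for Ube2v1, -0.51 and -0.72 for Ube2l3, -0.67 for Ube2q1, 0.36 for Ube2a, -0.16 and -0.060 for Ube2b, -0.13 for Ube2t, and 0.35, 0.26, -0.44 and -0.20 for Ube2f. Same-numbered samples did not deviate together (r = -0.20 across probes), so the numbers were not taken as pairs. The replicate block gave 3394 calls at an unadjusted p under 0.05, against 3809 without it, 5 of them Ube2 probes against 8, and 0 adjusted calls. Crossed pairing, chosen after seeing the data, gave 4367, 8 and 0. Of the values of named probes, 180 kept their direction and 45 turned. Most of those that turned came from the processed table, where the opposite group names turn every sign. The cause of the other changes was not tested. Signals near background limit Ube2s, Ube2t, Ube2d1, Ube2z and the dimmest detected probes of Ube2j2 and Ube2q2.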
